A study of Danio rerio with 1109 samples.

Results

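Among 1109 single cells of the zebrafish trunk at 48 hpf, 744 came from the *vegfc* line, and 90 of these 744 were selected on their own counts of 3 neural genes. A cell was chosen by its measured values if it had at least 20 raw counts of *gfap*, *elavl3* or *elavl4* and fewer than 20 counts of the fibroblast gene *lum*. These cells are called neural-gated here. Cells with *gfap* and without *elavl4* (gfap-only cells, 43) were set beside cells with *elavl4* and without *gfap* (elavl4-only cells, 28). The remaining members carried both genes (5 cells) or *elavl3* alone (14 cells). The embryos carried the transgenes *vegfc:Gal4FF*, *UAS:GFP* and *kdrl:mCherry*, in which *vegfc* regulatory sequence drives Gal4FF and through it GFP, and *kdrl* marks endothelial cells. No group was treated, and no wild-type or mutant comparison enters these cells. Trunks of many embryos were pooled per line and partly dissociated with trypsin, which favours superficial cells, and the cells were sorted as GFP-positive and mCherry-negative or as mCherry-positive and GFP-negative. In the sample labels a cell has its line and its plate, while the animal, the pool and the gate are missing. Each of the 2 plates, called *vegfc* plate 1 and *vegfc* plate 2, was therefore treated as 1 sample, and no p-value was computed. A further plate, from the *pdgfra:mCit* line, in which *pdgfra* regulatory sequence drives mCitrine, was used only as a separate check.

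In the spinal cord of the fish embryo, radial glia line the central canal, act as stem cells and keep a process to the outer surface. Notch signalling holds these cells in the progenitor state: cells that raise Delta ligands and proneural transcription factors leave the cycle and become neurons, while neighbours that receive Delta switch on her genes and stay progenitors. Progenitor domains along the dorsal to ventral axis carry different transcription factors and give rise to different neuron types. *gfap* encodes the intermediate filament of astroglia and radial glia, and *elavl3* and *elavl4* encode RNA-binding proteins of young and of postmitotic neurons. As further markers, *pou3f1* is a POU transcription factor of neural progenitors and promyelinating Schwann cells, *her4.4* is a Notch target, *plp1a* is a proteolipid protein gene of glia and *isl1* is a LIM transcription factor of motor and sensory neurons.

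The gate took 34 cells of *vegfc* plate 1 (9.26% of its cells, exact Clopper-Pearson 95% interval 6.50 to 12.7%) and 56 cells of plate 2 (14.9%, 11.4 to 18.9%). These intervals cover the counting error of cells only, because the animal, the pool and the sort gate of a cell are not given. Reads amplified by PCR and not tagged per molecule do not count molecules. Of the 34 members of plate 1, 18 were gfap-only, 7 elavl4-only, 3 carried both genes and 6 carried *elavl3* alone. On plate 2 the numbers were 25, 21, 2 and 8. Levels of a gene in single cells are given in CPM, its raw counts scaled to the same fixed total of gene counts in every cell, and a gene is said to be found in a cell that has at least 20 raw counts of it. *gfap* ranged from 123.2 to 6340 CPM (median 2377) in the gfap-only cells of plate 1 and from 97.3 to 6945 CPM (median 3179) in those of plate 2. *elavl4* ranged from 575 to 2261 CPM (median 1158) and from 157.5 to 4767 CPM (median 1522) in the elavl4-only cells. By the rule each gene lies under 20 raw counts in the opposite class, where the highest values were 10 raw counts of *gfap* and 4 of *elavl4*. Just inside the gate, the lowest cells had 25, 45 and 46 counts of their highest gate gene, and just outside it the highest had 19, 14 and 13. A further 9 cells met the neural condition but were left out for *lum*. *elavl3* was not confined to the neuronal side: it reached 20 counts in 26 of 28 elavl4-only cells and in 17 of 43 gfap-only cells.

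**Figure D1:**
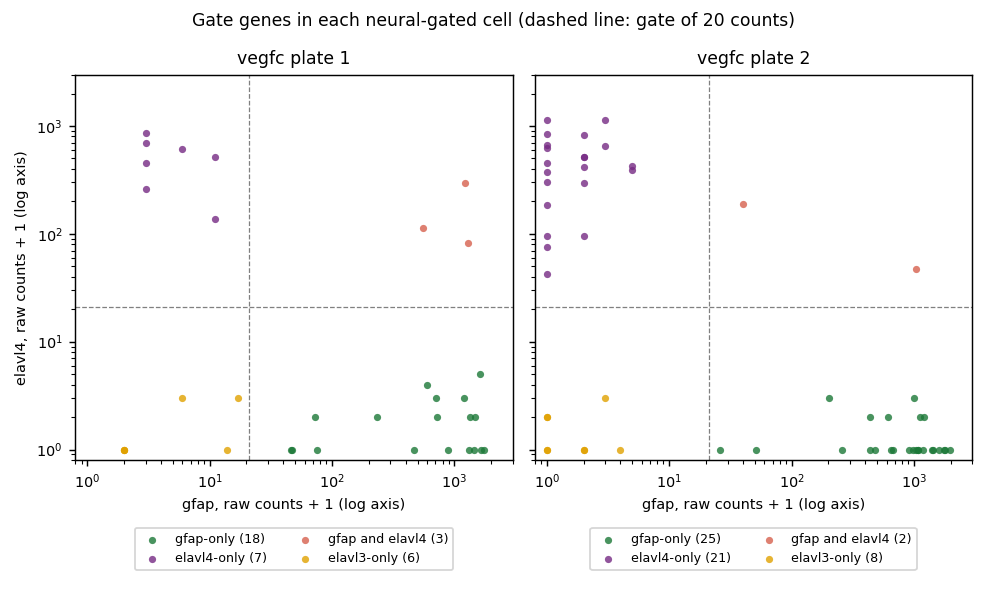
Raw counts of *gfap* (x axis, log scale of counts + 1) and *elavl4* (y axis, log scale of counts + 1) in each of the 34 neural-gated cells of *vegfc* plate 1 and the 56 of plate 2, coloured by class. The gfap-only cells lie at the lower right, the elavl4-only cells at the upper left, and only 5 cells lie past the dashed lines at 20 counts on both axes.

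The 4 markers that the gate did not use were also counted in these cells. They were chosen with earlier results of these data known, so they are no independent check of the label. At least 1 of *pou3f1*, *her4.4*, *plp1a* and *isl1* reached 20 counts in 71 of the 90 members and in 19 of the 654 other cells of the same plates. By class the numbers were 38 of 43 gfap-only cells, 15 of 28 elavl4-only cells, 5 of 5 cells with both gate genes and 13 of 14 cells with *elavl3* alone. The 19 members without any of these markers were 5 gfap-only cells, 13 elavl4-only cells and 1 cell with *elavl3* alone. Of the 13 elavl4-only cells, 1 on plate 2 had no *elavl3* and carried the transcription factor gene *tfap2a* with 2175 CPM, and the cell with *elavl3* alone carried the leukocyte gene *lcp1* with 769 CPM. Of the 5 gfap-only cells, 3 were on plate 1 and 2 on plate 2. Among them, 3 carried *pdgfra* and 2 carried *lcp1*. *col1a1a*, a fibrillar collagen chain gene, reached 14487, 12537, 12480 and 3416 CPM in 4 of the 5, and *lcp1* reached 3332 CPM in the fifth.

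Genes of other cell types were found in members of both plates. At least 3 of the 5 fibroblast genes *pdgfra*, *col1a1a*, *col1a2*, *col5a1* and *dcn* reached 20 counts in 23 of the 90 members, against 476 of the 654 other cells. These were 13 gfap-only cells (8 and 5 by plate), 5 elavl4-only cells (3 and 2), 4 with both gate genes and 1 with *elavl3* alone. The summed fibroblast list of 11 genes ranged from 458 to 36903 CPM in members of plate 1, with a median of 1160, and from 62.4 to 35279 CPM with a median of 173.8 in members of plate 2. In the other cells its medians were 14626 and 7210 CPM. The level in members was thus higher on plate 1 than on plate 2, as it was in the other cells. All 34 members of plate 1 had at least 71 raw counts of *col1a1a* and 88 of *col1a2*. These 2 of the 5 genes thus passed there in every member. The lowest sum on plate 1 was 458 CPM in members and 430 CPM in other cells. The number of members with 3 of the 5 genes therefore depends on the plate. Whether the collagen counts came from the cells themselves was not tested. The comparisons are given below also with these 23 members taken out of the neural-gated cells. Of 6 endothelial genes, no member carried 3, and of 12 pigment cell genes 5 were at 0 in all members of plate 1 and 4 in all members of plate 2. Of 7 myeloid genes, 3 or more were found in 3 members, all on plate 1. Of 12 skeletal muscle genes, 3 or more were found in 6 members of plate 1 and 1 of plate 2, and the highest sum, 27822 CPM, was in a cell of plate 1 with *elavl3* alone. Of 7 epithelial genes, 3 or more were found in 1 member on each plate, with a highest sum of 7011 CPM. The members had 71096 to 665505 gene counts per cell. Medians were 345519 and 291908 counts on the 2 plates, beside 301372 and 318452 in the other cells. The GFP transcript reached 20 counts in 34 of 34 and 36 of 56 members and mCherry in 2 and 0 members. The median raw counts of GFP were 82.5 and 26 in members, near the 66 and 22 of the other cells. *vegfc* itself reached 20 counts in 0 of 34 and 6 of 56 members.

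Set against all other cells of the same plates, the neural-gated cells differed in many genes. Counts were summed over the cells of each class and plate and scaled to CPM, and ratios are log2 ratios of CPM + 1, a scale that understates the differences of low genes. A gene was called higher or lower only if the ratio was at least 4-fold in the same direction on both plates. Of 13986 genes with a mean of at least 5 CPM over the 4 sums, 1130 (8.08%) were higher in the neural-gated cells and 1132 (8.09%) were lower. The choice of cells fixes the ratios of the gate genes, and 476 of the 654 other cells carried fibroblast genes, so that these counts describe neural-gated cells against mostly fibroblast-like ones. On plate 1 alone 1503 genes were at least 4-fold higher and 2022 lower, and on plate 2 alone 1748 were higher and 2056 lower. With 5 CPM added in place of 1 CPM, 708 genes were called higher and 503 lower. The nearly even split moved with the cells used. With the 23 members that carried fibroblast genes counted among the other cells instead, 1026 genes were higher and 1679 lower. Against only those other cells that carried *pdgfra* or *lum*, 1225 were higher and 863 lower.

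By gene group, 43 of 46 tested pan-neuronal genes were higher in the neural-gated cells (median log2 ratio 4.71, against −0.11 over all tested genes) and none was lower. This list includes *elavl3* and *elavl4*, the next list *gfap* and the fibroblast list *lum*, whose ratios follow from the gate. Of 42 tested genes of radial glia and neural progenitors, 22 were higher and 1, the gap junction gene *GJA1*, was lower, with a median of 2.92. Transcription factors and other genes of motor neurons were higher in 14 of 19, those of interneurons in 16 of 31, proneural and early differentiation genes in 17 of 27 and transmitter genes in 13 of 19. In these 4 groups, 0, 1, 0 and 2 genes were lower, the single interneuron gene being *en1a*. Genes of other tissues lay on the opposite side: 8 of 11 fibroblast genes, 4 of 7 myeloid genes, 4 of 6 endothelial genes and all 4 tested pigment cell genes were lower in the neural-gated cells, and none of those groups had a gene that was higher. The remaining lists of other cell types had 1 of 12 skeletal muscle, 1 of 7 epithelial, 1 of 2 erythroid and 3 of 6 notochord genes lower and none higher. Over all tested genes 8.09% were lower, near the share of the muscle genes, of which 5 lay below 0 on both plates. Cell cycle genes did not share this separation, with 2 of 30 higher, none lower and a median of −0.74. The higher genes include *STMN1* (ENSDARG00000033655), also a gene of neuronal microtubules, which may not be a member of that list.

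Several genes were close to absent outside the neural-gated cells. *npas1*, a bHLH-PAS transcription factor gene, reached 20 counts in 38 of 90 members and in 0 of 654 other cells, which allows a share of up to 0.459% of those cells. Its highest raw count in the other cells was 4. The same held for *plp1a*, with 39 members and 0 other cells, and for *sox21b*, a SoxB2 transcription factor gene, with 31 members and 0 other cells. *slc1a2b*, a glutamate transporter gene of astroglia in mammals, was found in 46 members and 3 other cells, with a log2 ratio of 7.13 ± 0.50 (mean and SD, n = 2 plates, as for all ratios given in this way). *GPM6A*, a neuronal membrane glycoprotein gene, was found in 70 members and 4 other cells (7.20 ± 0.77), and *pou3f1* in 58 members and 4 other cells (6.82 ± 0.81). *sox19a*, a SoxB1 gene of neural progenitors, was found in 40 members and 6 other cells. For 3 further genes of this kind the numbers were 29 members and 2 other cells for the secreted protein gene listed as *NELL2* (ENSDARG00000090690, 6.33 ± 0.18), 33 and 2 for the delta catenin gene *ctnnd2b* (6.44 ± 0.17) and 30 and 2 for *fez1*, which is needed for axon growth in mammals (6.72 ± 0.87). The microtubule regulator gene listed as *STMN1* (ENSDARG00000033655) had a ratio of 6.70 ± 0.31, and the synaptic vesicle fusion gene listed as *SNAP25* (ENSDARG00000020609) one of 6.47 ± 0.14.

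These genes did not mark the members in the same way. *GPM6A* spanned both classes, with 35 of 43 gfap-only and 22 of 28 elavl4-only cells, and its ratio between them was −0.55 ± 0.79. *NELL2* was found in 18 gfap-only and 10 elavl4-only cells (−0.18 ± 0.02). By contrast, *npas1*, *plp1a*, *sox21b* and *sox19a* lay almost wholly on the gfap-only side, with 0, 0, 1 and 1 elavl4-only cells. *fez1* was found in 20 of 28 elavl4-only cells and in 3 of 43 gfap-only cells. *slc1a2b* was found in 20 of 43 gfap-only cells and 17 of 28 elavl4-only cells, and its order differed by plate: its ratio of gfap-only over elavl4-only cells was −1.99 on plate 1 and 0.44 on plate 2.

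Inside the neural-gated cells, gfap-only cells were compared with elavl4-only cells. Of 12599 genes tested, 1781 (14.1%) were at least 4-fold higher in gfap-only cells on both plates and 1255 (9.96%) in elavl4-only cells. The median ratio over all tested genes was 0.32 in favour of gfap-only cells, and ratios below are to be read against it. Counts of list genes below are to be read against the shares of 14.1% and 9.96%. Since the split rests on *gfap* and *elavl4*, the ratios of these 2 genes are fixed by it. The counts move with the number of sums: on plate 2 alone 3150 genes were higher in gfap-only cells and 2667 in elavl4-only cells, and on plate 1 alone, with only 7 elavl4-only cells, 3982 and 2521. With 5 CPM added in place of 1 CPM, 994 genes were called for gfap-only cells. Genes of other cell types also lay toward the gfap-only side, with 3 of 10 tested fibroblast genes higher in gfap-only cells (median 1.69) and 5 of 6 myeloid genes above 0 on both plates (median 1.59, none past the 4-fold bound). Without the members that carried fibroblast genes, 1636 genes were higher in gfap-only cells, 1239 of them among the 1781, and 1194 in elavl4-only cells, 999 of them among the 1255.

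**Figure D2:**
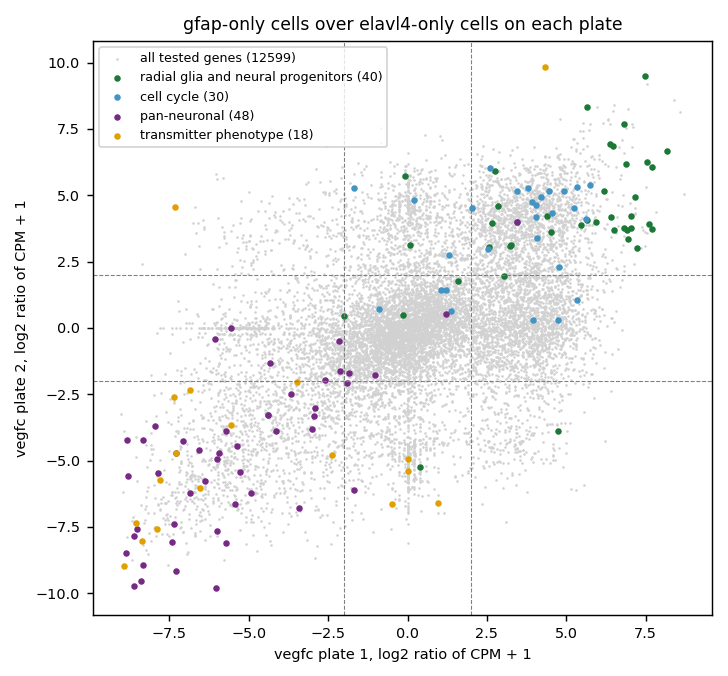
Log2 ratio of CPM + 1 of gfap-only over elavl4-only cells on *vegfc* plate 1 (x axis) and plate 2 (y axis), each point 1 of 12599 tested genes, with 4 gene lists in colour and dashed lines at the 4-fold bounds. Radial glia and progenitor genes (40, median 5.10) and most cell cycle genes (30, median 3.72) lie in the upper right, and pan-neuronal (48, median −5.52) and transmitter genes (18, median −4.60) mostly in the lower left. The radial glia list holds *gfap* and the pan-neuronal list *elavl4*, whose ratios the split fixes.

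Genes of radial glia and neural progenitors were the clearest group on the gfap-only side. Their list includes *gfap*, whose ratio the split fixes. Of 40 tested, 32 were higher in gfap-only cells and none in elavl4-only cells, with a median log2 ratio of 5.10. With class sums of 0 set to the value of 3 counts, that median was 5.03. *plp1a* ranged from 0 to 1371 CPM (median 429) in gfap-only cells of plate 1 and from 0 to 2015 CPM (median 1024) in those of plate 2. In elavl4-only cells its highest raw counts were 3 and 1. It thus reached 20 counts in 35 of 43 gfap-only cells and in 0 of 28 elavl4-only cells, a share whose limit at this number of cells is 10.7%, and its ratio was 8.36 ± 1.18. The SoxB1 transcription factor genes *sox3*, *sox19a* and *sox2* were found in 36, 35 and 28 gfap-only cells and in 1 elavl4-only cell each. *sox3* had medians of 1799 and 1286 CPM in gfap-only cells, against 11.2 and 0 CPM in elavl4-only cells. A single elavl4-only cell of plate 2 lay in the upper part of the gfap-only range with 2476 CPM of *sox3*, and it also carried *sox19a*, *dla*, *ascl1b* and *her4.4*.

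The Notch receptor and target genes followed the same division. Of 29 tested genes of the Notch pathway, 19 were higher in gfap-only cells and none was lower (median 3.36). Notch receptor and her genes are also in the list of radial glia and neural progenitors, so the counts of both lists are not independent. *notch3*, a Notch receptor gene, had medians of 698 and 1341 CPM in gfap-only cells and was found in 35 of them, in 1 of 28 elavl4-only cells and in 16.2% of the other cells. The receptor gene listed as *NOTCH1* (ENSDARG00000052094) was found in 30 gfap-only cells and 1 elavl4-only cell (6.89 ± 1.16). Among the Notch targets, *her12* was found in 31 gfap-only cells and 1 elavl4-only cell (6.51 ± 0.50), and *her4.4* in 34 and 1. *her4.4* ranged from 0 to 394 CPM (median 90.2) and from 0 to 685 CPM (median 267.5) in gfap-only cells. It was at 0 in all 7 elavl4-only cells of plate 1, and on plate 2 a single elavl4-only cell reached 20 raw counts, with 65. The her4 genes are near-identical copies in the genome, and how short single reads were divided among them is uncertain, so that *her4.4* and *her4.1* (37 and 1 cells) are not independent. The Notch pathway was also higher against the other cells of the plates, in 14 of 30 genes with 1 lower. The lower gene was *dll4*, a Delta ligand gene of arterial endothelium, found in 1 member and 27 other cells.

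Single genes known from astroglia differed in their pattern. *slc1a2b*, given above, was found on both sides, while the genes that follow were found mostly in gfap-only cells. *slc6a9*, a glycine transporter gene of glia, ranged from 0 to 3459 CPM (median 226.01) in gfap-only cells of plate 1 and from 17.8 to 5817 CPM (median 2209) in those of plate 2. In elavl4-only cells its highest raw counts were 51 and 2. The ratios were 4.32 on plate 1 and 9.84 on plate 2. The glial adhesion gene listed as *HEPACAM* (ENSDARG00000056934) was found in 5 of 18 and 13 of 25 gfap-only cells, in 0 of 28 elavl4-only cells and in 0 of 654 other cells. The intermediate filament gene *vim* was found in 37 gfap-only and 9 elavl4-only cells (3.31 ± 0.93), and the fatty acid binding protein gene listed as *FABP7* (ENSDARG00000007697) in 31 and 4 (2.81 ± 0.35). *FOXJ1*, the transcription factor gene of motile cilia, ranged from 0 to 1549 CPM (median 21.4) and from 0 to 3772 CPM (median 174.4) in gfap-only cells and was found in 22 of 43 of them, in 1 elavl4-only cell and in 4 of the 5 cells with both gate genes (5.67 ± 1.51 between the classes).

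Beyond these lists, the genes with the largest ratios that held on both plates and in at least 25% of gfap-only cells were *npas1* (8.48 ± 0.14), *plp1a*, the receptor gene *ldlrad2* (7.33 ± 0.35), the protease gene listed as *PRSS35* (ENSDARG00000100691, 7.37 ± 0.43), *dbx1a* (7.59 ± 0.95), *ntn1a* (6.94 ± 0.16), *metrn* (7.25 ± 0.61), *robo4* (7.26 ± 0.64) and *atp1a1b* (7.42 ± 1.07). *metrn* encodes meteorin, a secreted protein of neural progenitors and glia, and *atp1a1b* an alpha subunit of the sodium pump. *npas1* had medians of 424 and 562 CPM in gfap-only cells and at most 1 and 2 raw counts in elavl4-only cells. A further 3 genes of this set were at 0 in the elavl4-only sum of 1 plate, so that no ratio is given. *FOXB1* (ENSDARG00000053650), a forkhead transcription factor gene, had 161.8 and 183.8 CPM in the gfap-only sums against 0.391 and 0 CPM. *CLDN5* (ENSDARG00000043716), a tight junction gene, had 99.2 and 186.4 CPM against 0 and 0.678. *pacsin3*, an endocytosis adaptor gene, had 105.4 and 181.3 CPM against 0 and 0.339. *metrn* and *pacsin3* were also found in 16.2% and 13.5% of the other cells of these plates.

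Within the gfap-only cells, *elavl3* went with Delta genes and proneural genes. The 17 gfap-only cells with at least 20 counts of *elavl3* (9 and 8 by plate) were set beside the 26 without (9 and 17), a division made after these values had been seen and given as a description only. The Delta ligand gene *dla* was found in 15 of 17 cells with *elavl3* and in 10 of 26 without, with medians of 1600 and 12 CPM. *dld* was found in 15 and 5. *neurod4*, a proneural bHLH gene, was found in 14 of 17 and 1 of 26, and its medians in the cells with *elavl3* were 463 and 1211 CPM on the 2 plates against 0 and 0. All 15 gfap-only cells with *neurod4* also carried *dla*, while 10 carried *dla* without *neurod4*. The zinc finger gene *myt1b*, which acts in early neurons, was found in 15 and 7 cells, and *rtn1a*, a reticulon gene of neurons, in 10 and 6. *gfap* itself did not separate them, with medians of 2302 and 3328 CPM, and *sox3* was found in 16 of 17 and 20 of 26. *pou3f1* was found in all 17 and in 15 of 26, with medians of 2202 and 347.96 CPM.

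Cell cycle genes were found more often in the cells without *elavl3*, and glial genes did not share 1 pattern. *pcna*, a replication factor gene, was found in 13 of the 26 and in 3 of the 17 with *elavl3*, and the proliferation gene *mki67* in 7 and 1. Of the 13 cells, 4 were among the 5 gfap-only cells without any of the 4 further markers. *HEPACAM* was found in 14 and 4, *slc6a9* in 21 and 12 (5 of 9 in both subsets on plate 1), *plp1a* in 21 and 14 and *slc1a2b* in 12 and 8. On plate 1 *pcna* ranged from 60.7 to 2954 CPM (median 993) in the 9 cells without *elavl3* and from 13.3 to 765 CPM (median 33.7) in the 9 with it. On plate 2 the ranges were 0 to 3827 CPM (median 19.8) and 2.32 to 511 CPM (median 8.57), so that the 2 subsets overlapped in *pcna* on both plates.

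**Figure D3:**
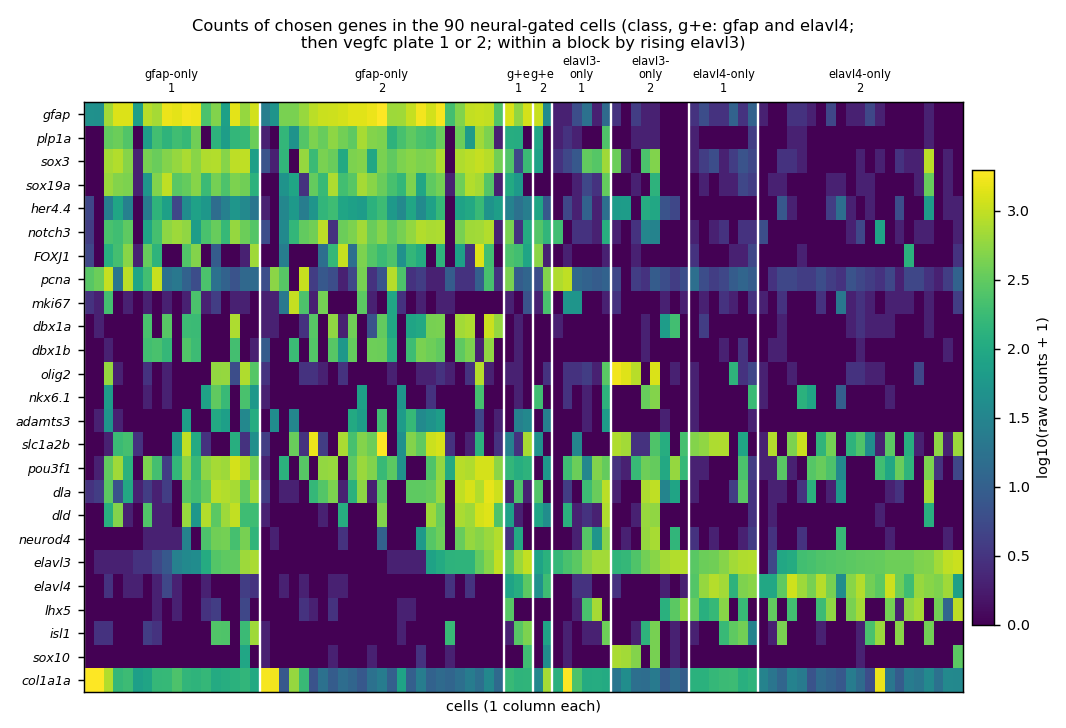
Heat map of log10(raw counts + 1) of 25 genes (y axis) in each of the 90 neural-gated cells (x axis, 1 column per cell), in blocks by class and plate and, inside a block, by rising *elavl3*. *sox3*, *plp1a* and *notch3* fill most gfap-only columns and few or no elavl4-only columns. *dla*, *dld* and *neurod4* gather at the *elavl3* end of the gfap-only blocks, and *olig2* with *sox10* stands out in 4 cells with *elavl3* alone on plate 2.

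Over all proneural and early differentiation genes, no direction was shared: of 27 tested, 4 were higher in gfap-only cells and 6 in elavl4-only cells, with a median of 0.22 that lies below that of all genes. The first share lies near the 14.1% of all tested genes that were higher in gfap-only cells, and the second stands beside 9.96%. Higher in gfap-only cells were *neurod4* (5.10 ± 1.69), *btg2* (3.13 ± 0.33), *cbfa2t2* and *ascl1a*. *ascl1a*, a proneural bHLH gene, was at 0 in the elavl4-only sums of both plates, with 34.97 and 12.9 CPM in gfap-only cells. *btg2*, an antiproliferative gene, was found in 39 gfap-only cells and 6 elavl4-only cells but also in 589 of the 654 other cells. Higher in elavl4-only cells were *insm1a* (−2.86 ± 1.12), *myt1b* (−2.03 ± 0.03), *onecut1* (−7.87 ± 1.08), *onecutl*, *cbfa2t3* and *SOX4* (ENSDARG00000098834). *onecut1*, a homeobox gene of postmitotic spinal neurons, was found in 16 elavl4-only cells and 1 gfap-only cell. *hes6*, a bHLH gene of differentiating progenitors, did not reach the 4-fold bound on plate 2, with ratios of 3.16 and 1.11.

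Transcription factors of progenitor domains divided the gfap-only cells. *dbx1a* and *dbx1b*, homeobox genes of the domains at the middle of the spinal cord, were found in 18 and 21 gfap-only cells and in no elavl4-only cell. *dbx1b* had 15 of these 21 cells on plate 2, where it ranged from 0 to 1620 CPM (median 552), against 0 to 847 CPM (median 0) on plate 1. Either gene was present in 22 of 43 gfap-only cells, 6 of 18 on plate 1 and 16 of 25 on plate 2. *olig2*, the bHLH gene of the motor neuron progenitor domain, was found in 6 gfap-only cells, 5 on plate 1 and 1 on plate 2, and reached up to 2503 and 1660 CPM. No gfap-only cell carried *olig2* together with *dbx1a* or *dbx1b*. All 6 cells with *olig2* also carried *nkx6.1*, a ventral homeobox gene found in 9 gfap-only cells in all, and 4 of the 6 carried *isl1*. *prdm12b*, a gene of another ventral domain, was found in 4 gfap-only cells, none of them with a dbx1 gene and 1 with *olig2*. The domain genes thus took different shares on the 2 plates, *olig2* mostly on plate 1 and the dbx1 genes mostly on plate 2, and the sort gate of each cell is not given.

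Of 29 tested interneuron transcription factor genes, 5 were higher in gfap-only cells (*dbx1a*, *dbx1b*, *lbx2*, *prdm12b* and *IRX3*, ENSDARG00000031138) and 8 in elavl4-only cells (*en1b*, *GATA2*, *gata3*, *tal1*, *PAX2*, *lhx1a*, *lhx5* and *foxd3*), with a median of −1.41. The share of the first set lies near the 14.1% of all tested genes that were higher in gfap-only cells. In elavl4-only cells 9.96% of all tested genes were higher. The first set holds genes known from progenitor domains and the second genes known from postmitotic neurons. Of 10 tested floor plate, roof plate and cerebrospinal fluid contacting genes, 4 were higher in gfap-only cells (*FOXJ1*, *ntn1a*, *msx1b* and *SPON1*, ENSDARG00000023694) and none in elavl4-only cells, with a median of 2.12. Netrin, encoded by *ntn1a*, is an axon guidance ligand known from the floor plate, and *ntn1a* was found in 12 of 18 and 10 of 25 gfap-only cells, in 0 elavl4-only cells and in 81 other cells.

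Cell cycle genes were higher in gfap-only cells in 19 of 30 and in elavl4-only cells in 1 (median 3.72). The exception, *STMN1* (ENSDARG00000033655), is also a gene of neuronal microtubules (−3.84 ± 0.78). The list names only *stmn1a*, and both identifiers listed as *STMN1* entered it, so this exception may not be a member of the list. *pcna* ranged from 13.3 to 2954 CPM (median 77.3) and from 0 to 3827 CPM (median 17.3) in gfap-only cells, and its highest raw counts in elavl4-only cells were 15 and 10. It was found in 16 of 43 gfap-only cells and 0 of 28 elavl4-only cells (5.04 ± 0.15), *ccnd1* in 21 and 0 (4.88 ± 0.51) and *mki67* in 8 and 1 (4.81 ± 0.52). By plate, 9 of 18 and 7 of 25 gfap-only cells carried *pcna*, and 2 and 6 carried *mki67*. Some of the gfap-only cells with *pcna*, on both plates, carried none of the 4 further markers and had high counts of collagen genes or of *lcp1*. The replication gene *mcm5* differed between plates, with ratios of 5.33 and 1.06. *pcna* was found in 48.5% of the other cells and *mki67* in 20%, against 22.2% and 13.3% of the members.

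Pan-neuronal genes were the clearest group on the elavl4-only side. Their list includes *elavl4*, whose ratio the split fixes, and the further gate gene *elavl3*. Of 48 tested, 36 were higher in elavl4-only cells and 1 in gfap-only cells, with a median of −5.52 (−5.41 with sums of 0 set to 3 counts). The exception was *STMN1* (ENSDARG00000004169), a second gene listed under that name. The list names only *stmn1b*, and both identifiers listed as *STMN1* entered it, so this exception may not be a member of the list. *SNAP25* (ENSDARG00000020609) ranged from 0 to 3726 CPM (median 1787) in elavl4-only cells of plate 1 and from 0 to 5292 CPM (median 957) in those of plate 2. In gfap-only cells it reached at most 418 and 4.31 CPM, and the numbers of cells were 23 of 28 and 2 of 43 (−7.93 ± 2.68). *gng3*, a G protein gamma subunit gene of neurons, was found in 26 of 28 and 3 of 43, with ranges of 465 to 1607 CPM (median 1080) and 0 to 2198 CPM (median 920) in elavl4-only cells (−5.33 ± 0.84). *STMN2* (ENSDARG00000070537), a microtubule regulator gene of growing axons, was found in 25 and 3 (−5.35 ± 0.12).

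The genes with the largest ratios on both plates in at least 25% of elavl4-only cells are given next. *tuba2*, a tubulin gene, ranged from 104.7 to 2006 CPM (median 1678) and from 0 to 1910 CPM (median 310.9) in elavl4-only cells and was found in 18 of 28 of them and in no gfap-only cell (−8.71 ± 0.07). *cplx2a*, which encodes complexin of the vesicle fusion machinery, was found in 15 (−8.35 ± 0.24). *eno2*, the neuronal enolase gene, was found in 14 (−8.26 ± 0.08), and *basp1*, a growth cone protein gene, in 18 (−8.30 ± 0.09). No gfap-only cell reached 20 raw counts of any of these 4 genes. The glycine receptor gene *glra1* was found in 18 elavl4-only cells and in no gfap-only cell (−8.18 ± 0.23). A further 5 genes were at 0 in the gfap-only sum of plate 2 and are given without a ratio. In the elavl4-only sums, the second *STMN2* gene (ENSDARG00000033234) had 1567 and 748 CPM, the synapsin gene *SYN2* 612 and 359.7 CPM, the neurofilament gene *INA* (ENSDARG00000053248) 526 and 487 CPM, the clathrin assembly gene *snap91b* 737 and 233.2 CPM and the endocytosis gene *necap1* 310.1 and 263.01 CPM. In the gfap-only cells of plate 1 the sums lay between 0.160 and 3.67 CPM.

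The cholinergic and the inhibitory elavl4-only cells formed sets that did not overlap at 20 raw counts. For *SLC18A3*, *GAD1* and *SLC17A6*, each listed for 2 identifiers, the higher count of a cell was used. *SLC18A3*, the vesicular acetylcholine transporter gene, or *chata*, the acetylcholine synthesis gene, was found in 10 of 28 cells (3 of 7 and 7 of 21 by plate). The inhibitory genes *slc6a5* (neuronal glycine transporter), *slc32a1* (vesicular transporter of GABA and glycine) or *GAD1* (GABA synthesis) were found in 13 (4 and 9). No elavl4-only cell carried genes of both sets. *SLC17A6*, a vesicular glutamate transporter gene, was found in 3 cells, all on plate 2, with 315.7, 854 and 754 CPM. The last of these also carried *GAD1* with 433 CPM. None of these genes reached 20 raw counts in 3 cells, all on plate 2, and 1 of the 3 was the cell named above for *tfap2a* without *elavl3*. Of 18 tested transmitter genes, 12 were higher in elavl4-only cells and 1, *slc6a9*, in gfap-only cells. The members of this list that were higher in elavl4-only cells included receptor subunit genes of glutamate, GABA and glycine, among them *glra1*, *gabrb4* and both genes listed as *GRIN1*.

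**Figure D4:**
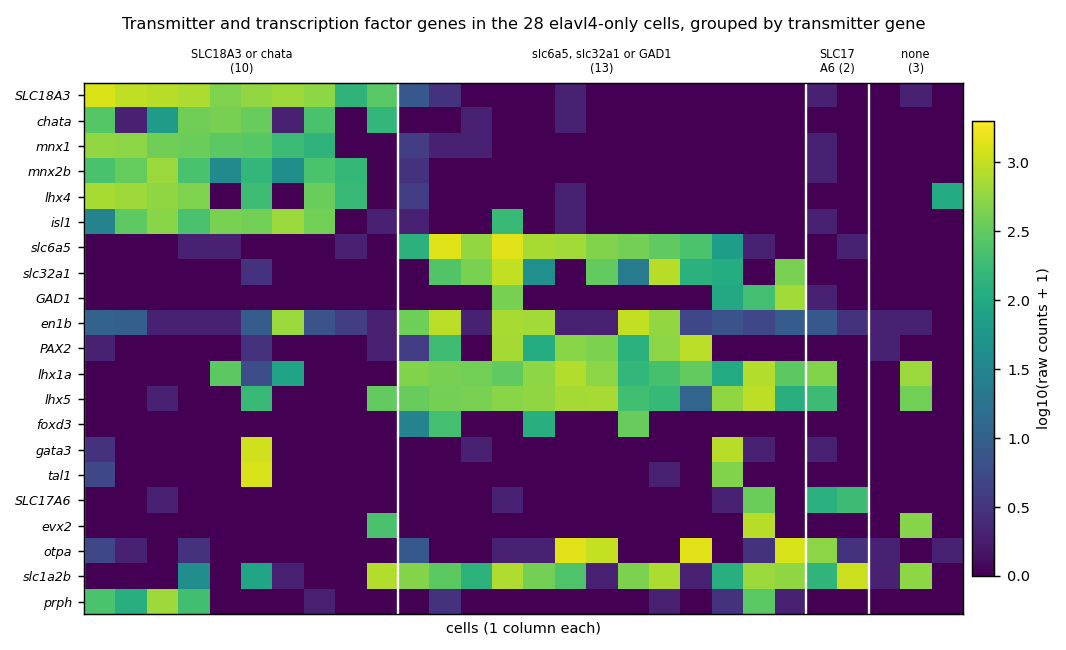
Heat map of log10(raw counts + 1) of 21 transmitter, transcription factor and other genes (y axis) in each of the 28 elavl4-only cells (x axis, 1 column per cell), in blocks by transmitter gene. Of the 10 cells with *SLC18A3* or *chata*, 9 hold *mnx1* or *mnx2b* and 7 hold *lhx4*, the 13 cells with *slc6a5*, *slc32a1* or *GAD1* hold *lhx1a* or *lhx5*, and *SLC17A6* appears in 3 cells, 1 of them in the inhibitory block.

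The cholinergic cells carried transcription factors of motor neurons. *SLC18A3* ranged from 1108 to 4371 CPM in the 10 cells, and its largest raw count in a gfap-only cell was 4, so that the ratio of the gene (ENSDARG00000006356) was −8.96 ± 0.03. *mnx1* or *mnx2b*, homeobox genes of motor neurons, were found in 9 elavl4-only cells, and all 9 were cholinergic. The cholinergic cell without them, on plate 2, carried 1258 CPM of *lhx5* and 891 CPM of *evx2*. *isl1* was found in 9 elavl4-only cells, of which 8 were cholinergic, and 1 cell of plate 1 carried it with inhibitory genes. In elavl4-only cells *isl1* ranged from 0 to 1277 CPM (median 98.3) on plate 1 and from 0 to 2606 CPM (median 0) on plate 2. It was also found in 5 gfap-only cells, and the ratios of −0.67 and −4.10 did not meet the call on plate 1. Of 21 tested motor neuron genes, 11 were higher in elavl4-only cells, namely *mnx1* (−4.74 ± 1.09), *mnx2b*, *lhx4*, *chata* (−4.98 ± 3.35), *SLC18A3*, *SLC5A7*, *ache*, *chga*, *gfra1a*, *ret* and *ISL2* (ENSDARG00000003971), and 1, *olig2* (4.07 ± 1.57), in gfap-only cells. The median of the list was −2.69. A single cholinergic cell of plate 2 also carried 422 CPM of *pdgfra*, 4641 CPM of *col1a1a* and 1832 CPM of *en1b*.

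The inhibitory cells carried *lhx1a* and *lhx5*, LIM homeobox genes of several interneuron types. Either gene was found in 19 elavl4-only cells, namely in all 13 inhibitory cells, in 4 cholinergic cells and in 2 others. *lhx5* ranged from 0 to 1420 CPM (median 423) on plate 1 and from 0 to 3235 CPM (median 462) on plate 2, and was found in 16 elavl4-only cells and no gfap-only cell (−8.24 ± 0.997). *slc6a5* was found in 11 of the 13 cells, and 9 of these 11 also carried *slc32a1* or *GAD1*. *en1b* and *PAX2*, genes of V1 and other inhibitory interneurons, were found in 7 and 8 elavl4-only cells, 5 cells having both. Of the 7 cells with *en1b*, 6 carried *slc6a5* and 4 carried *foxd3*. *en1b* was also found in 17.6% of the other cells of these plates, and 33 other cells carried it with *slc6a5*. *gata3* and *tal1*, genes of V2b and cerebrospinal fluid contacting neurons, were found together in 2 elavl4-only cells with different partners. The first, on plate 1, had 2935 and 3224 CPM of them and was cholinergic with *mnx1*, and the second, on plate 2, had 3305 and 1745 CPM and carried *slc32a1*, *GAD1* and *slc6a5*. *evx2*, a gene of V0 neurons, was found in 3 cells and the homeobox gene *otpa* in 5.

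The 14 cells with *elavl3* alone were mixed. On plate 2, 4 of the 8 carried *olig2* and *sox10*, the SoxE gene of neural crest and oligodendrocyte precursors, together. *olig2* had 5453, 5199, 3574 and 2608 CPM in these cells, *sox10* 2432, 2626, 1142 and 1442 CPM and *elavl3* 461, 590, 1391 and 730 CPM, in the same order of cells. *gfap* was at 3 raw counts or fewer in all 4. Both genes together were found in 1 gfap-only cell of plate 1 and in 1 of the 654 other cells, and in none of the 28 elavl4-only cells. The cell with 3574 CPM of *olig2* stood apart from the other 3 by *neurod4* (2038 CPM), *isl1* (1142 CPM), *mnx2b* (942 CPM) and *th* (765 CPM). Another 4 cells carried inhibitory transmitter genes with *PAX2* (1071 to 2913 CPM) and *lhx1a*, and 2 carried *SLC17A6* without inhibitory genes. On plate 1, *pcna* reached 2026 and 1871 CPM in 2 cells, which also carried *col1a1a* with 4359 CPM in the first and *lcp1* with 769 CPM in the second.

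The 5 cells with both *gfap* and *elavl4* held progenitor and neuronal genes side by side. *gfap* had 3265, 2572 and 2050 CPM in the 3 cells of plate 1 and 1984 and 81.9 CPM in those of plate 2, and *elavl4* 204.6, 617, 413, 87.5 and 399 CPM in the same order. All 5 carried *notch3* or *dla*, and 4 carried *FOXJ1*. The first cell carried 1366 CPM of *gata3* and 785 CPM of *tal1*, and the second 1536 CPM of *SLC18A3*, 909 CPM of *mnx1* and 953 CPM of *isl1* beside 378 CPM of *sox3*. The last, with the lowest *gfap*, also had 96.6 CPM of *pdgfra*, 1508 CPM of *col1a1a* and 990 CPM of *pcna*. Whether a well held more than 1 cell was not tested.

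Genes listed for peripheral glia showed no shared direction against the other cells, with 8 of 32 tested higher, 5 lower and a median of 0.033. Over all tested genes 8.08% were higher and 8.09% lower. Their summed level had medians of 2834 and 3062 CPM in members and 2157 and 2599.5 CPM in the other cells. Inside the neural-gated cells, of 24 tested genes of Schwann cells and neural crest glia, 8 were higher in gfap-only cells and 4 in elavl4-only cells (median 1.98). Over all tested genes 14.1% were higher in gfap-only cells and 9.96% in elavl4-only cells, shares that also stand beside the lists below. *sox10* was found in 8 of 90 members and 8 of 654 other cells. The 8 members were 1 gfap-only cell, 1 elavl4-only cell, 2 cells with both gate genes and 4 with *elavl3* alone, and 38 of the 39 members with *plp1a* lacked *sox10*. The myelin gene *mpz* was found in 4 members, and *mbpa* and *plp1b* were at 0 in all members. *plp1a* was instead found with *gfap* in 38 of 39 and with *sox3* in 37 of 39 members. Of 8 tested oligodendrocyte lineage genes, 3 were higher in gfap-only cells, *olig2* and both genes listed as *SOX9*, and 1, *ppp1r14ba*, in elavl4-only cells. None of the 90 members reached 20 raw counts of *prdm14*, *pou4f3*, *phox2bb*, *dbh* or the gene listed as *P2RX3*, genes known from sensory or sympathetic neurons, which allows a share of up to 3.33%. *drgx*, a gene of dorsal sensory circuits, was found in 1 member with 22 raw counts. Of 12 tested sensory neuron genes 4 were higher in elavl4-only cells (*prph*, both *FGF13* genes and *CXCR4*, ENSDARG00000041959) and none in gfap-only cells. *prph*, the peripherin gene of neurons with peripheral axons, was found in 9 members, 5 of them elavl4-only cells.

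Of 45 tested axon guidance genes, 6 were higher in gfap-only cells, a share close to the 14.1% of all tested genes, and 11 in elavl4-only cells, where 9.96% of all tested genes were called (median −1.40). The first set held the ligand gene *ntn1a*, the receptor genes *robo4* (24 and 0 cells), *unc5b* and *nrp1b* and the ephrin system genes *efnb1* and *epha4a* (20 and 0 cells, 6.304 ± 0.34). *robo4*, a roundabout receptor gene best known from endothelium, ranged from 0 to 1646 CPM (median 22.6) on plate 1 and from 0 to 2943 CPM (median 361.6) on plate 2 in gfap-only cells, and was found in 33 other cells. The second set held the adhesion genes *l1cama* (14 elavl4-only and 2 gfap-only cells) and *l1camb* (12 and 0, −7.37 ± 0.44), *NRCAM*, *DSCAM* (ENSDARG00000024865), the semaphorin receptor genes *plxna4* and *NRP1*, the ligand genes *efna2a* and *SLIT1* (ENSDARG00000044954) and the receptor genes *epha4b*, *EPHB2* (ENSDARG00000021539) and *CXCR4*. The paralogs *epha4a* and *epha4b* thus lay on opposite sides.

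Since the study asked where the protease Adamts3, which processes the lymphatic growth factor Vegfc, is made in the trunk, *adamts3* was followed in these cells. The paper reports strong *adamts3* signal in the spinal cord and reporter signal in motoneurons. It also reports higher *adamts3* in sorted reporter-positive neurons, and rescue of venous sprouting by transplanted motoneurons. In its own clustering of the single cells used here, the paper places several cells with *adamts3* in neuronal clusters. Its counts give such cells for the cluster marked by *gfap* and *npas1* and not for the one marked by *elavl3* and *elavl4*. The cells here were sorted on *vegfc* and *kdrl* reporters and not for *adamts3*. They include cells with cholinergic and motor neuron genes, as given above. How far these match the motoneurons of the paper was not tested. At least 20 raw counts were present in 6 of 18 gfap-only cells of plate 1 (33.3%, exact 95% interval 13.3 to 59%) and in 10 of 25 of plate 2 (40%, 21.1 to 61.3%). Of 28 elavl4-only cells none reached 20 raw counts, which allows a share of up to 10.7%, and the highest count was 1. By plate, the exact 95% intervals of this share reach 41% in the 7 cells of plate 1 and 16.1% in the 21 of plate 2. *adamts3* had 69.6 and 101.3 CPM in the gfap-only sums and 0.782 and 0 CPM in the elavl4-only sums. It was further found in 3 of 5 cells with both gate genes and in 1 of 14 with *elavl3* alone, so that 20 of 90 members carried it (22.2%, 14.1 to 32.2%). In the other cells the shares were 3.60% on plate 1 (12 cells, 1.88 to 6.21%) and 9.35% on plate 2 (30 cells, 6.39 to 13.1%). At a bound of 50 raw counts the share of members was 13.3%, and with the 23 members that carried fibroblast genes left out it was 17.9% at 20 raw counts.

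**Figure D5:**
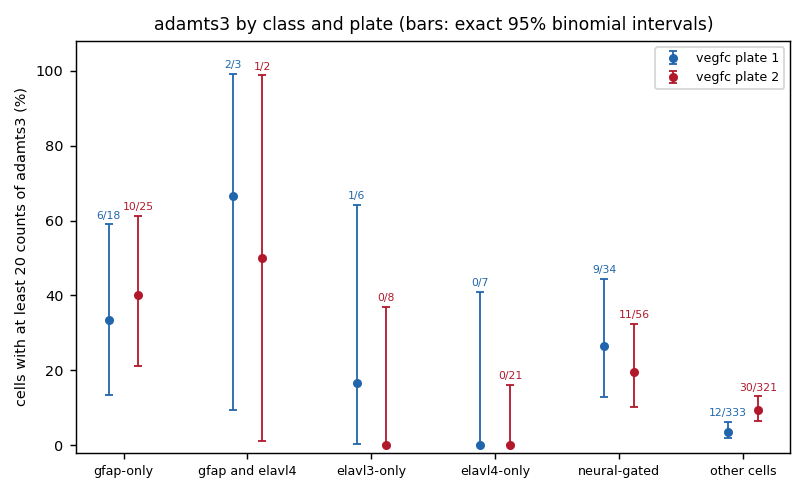
Share of cells with at least 20 raw counts of *adamts3* (y axis, percent) by class (x axis) on *vegfc* plates 1 and 2, with exact 95% binomial intervals as bars and the numbers of cells above them. The gfap-only shares of 33.3% and 40% lie above those of the other cells, 3.60% and 9.35%, and both elavl4-only shares are 0.

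The gfap-only cells with *adamts3* differed between the 2 plates in whether they carried *olig2*. On plate 1, 5 of the 6 were the 5 cells with *olig2*, with 80.4 to 296.2 CPM of *adamts3*. The remaining cell had 72 raw counts and carried *slc1a2b*, *dbx1a* and *dbx1b*. With it, 2 of the 6 carried *slc1a2b*. On plate 2 none of the 10 carried *olig2*, and the only gfap-only cell with *olig2* on that plate had 4 raw counts of *adamts3*. Of these 10 cells 9 carried *slc1a2b*, which was found in 13 of all 25 gfap-only cells of that plate. The other cell had collagen genes and *pdgfra* and none of the 4 further neural markers. Among all members, 8 carried *adamts3* together with *isl1*: 4 gfap-only cells, 3 cells with both gate genes and 1 with *elavl3* alone. None of the 9 elavl4-only cells with *isl1* carried *adamts3*. Of the cells with both gate genes, 2 carried *adamts3* and *isl1* with *SLC18A3* and *chata*. They had 34 raw counts of *adamts3* with 727 of *SLC18A3* on plate 1, and 26 with 79 on plate 2. *adamts14*, the related protease gene, was found in 1 member, a cell of plate 2 with both gate genes, and in 7 other cells.

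Other genes of the Vegfc pathway were low in the members. *vegfc* was found in 0 of 18 and 5 of 25 gfap-only cells, in 1 of 28 elavl4-only cells and in 92 other cells, and only 2 members carried *vegfc* and *adamts3* together. The 5 gfap-only cells with *vegfc* had 730 to 1104 raw counts of GFP. Of these cells 1, with 1796 raw counts of *col1a1a* and 702 of *en1b*, carried none of the 4 further markers. *ccbe1*, whose product helps Vegfc processing, was found in 3 members and 19.9% of the other cells. Of 16 tested genes of Vegfc processing and Vegf signalling none was higher in the neural-gated cells and 3 were lower, the receptor genes *flt4* and *flt1* and *svep1*, which encodes a matrix protein needed for lymphatic growth. Over all tested genes 8.09% were lower. Inside the neural-gated cells, *adamts3*, *PCSK5* (10 and 1 cells, 3.66 ± 0.18), a proprotein convertase gene, and *VEGFA* (ENSDARG00000103542, 7 and 0 cells, 3.37 ± 1.42) were the 3 of 11 tested genes that were higher in gfap-only cells, and none was higher in elavl4-only cells. Over all tested genes 14.1% were higher in gfap-only cells and 9.96% in elavl4-only cells.

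Hox genes did not separate the classes. Of 43 tested, 1, *HOXB5* (ENSDARG00000013057), was higher in gfap-only cells and 1, *HOXC13*, in elavl4-only cells, and the median of 0.15 lies below that of all genes. Against the other cells, 34 of 45 had ratios above 0 on both plates and 7 met the 4-fold call, namely *hoxa9b*, *hoxb6b*, *hoxb8a*, *hoxb8b*, *HOXC8*, *HOXD3* and *HOXD10*, while *hoxa13a* was lower. Over all tested genes 8.08% were higher and 8.09% lower. *hoxb8a*, a gene of the trunk axial code, ranged from 0 to 1718 CPM (median 298.5) in members of plate 1 and from 0 to 2399 CPM (median 333.2) in members of plate 2. It was found in 55 of 90 members and 68 of 654 other cells (3.49 ± 0.60), and *HOXD3* in 57 and 65 (3.19 ± 0.20).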

How the data were processed

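Single cells of partly dissociated zebrafish trunks at 48 hpf were sorted into plates and their mRNA was amplified by PCR from oligo(dT) priming without molecular tags. The authors demultiplexed the reads with bcl2fastq, trimmed adapters with trim galore, mapped reads to GRCz11 with TopHat2 and Bowtie2, removed what they call doublets from the alignments with samtools, and counted reads per gene with featureCounts of the Subread package. The values they deposited are raw counts per gene and cell, as whole numbers with no normalization. Their cell filters set minimums for depth and for genes detected and a maximum of genes above which a cell was taken as a potential doublet. The lowest depth left is 50045 gene counts. No doublet caller was run here. A read counted for a gene with a near-identical copy may belong to the copy, and no use of strand is stated.

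The table held 32057 genes, 92 spike-ins and 2 reporters for 1109 cells. The *vegfc* line contributed 367 cells on its plate 1 and 377 on its plate 2, and the *pdgfra:mCit* line 365. No column was left unused, and no 2 cells had identical gene counts. Names came from a gene name table for 28988 identifiers and from the names in the study's source data for another 1054. A name in capitals is the name the table gives for a zebrafish identifier. Of 634 entries in 24 gene lists, 42 had no identifier. A listed gene ending in a or b without an identifier of its own took all identifiers under the shared name. The cells, the gene lists and the comparisons were chosen with earlier results of these data known.

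Gene counts were summed over the cells of a class on a plate and scaled to CPM by the summed gene counts, without spike-ins and reporters. A log2 ratio of CPM + 1 was taken within each plate. Genes with a mean of at least 5 CPM over the 4 sums were tested, and a gene was called where it differed at least 4-fold in the same direction on both plates. With 1 sample per plate and no animal, pool or gate named for a cell, no p-value was computed, and spread is given as the SD of the 2 plates. Shares have exact Clopper-Pearson 95% intervals, and a share of 0 the limit that 3 cells allow, both for counting error only. The genes named were the markers, the members of the lists with at least 20 counts in at least 15% of the cells of a class on a plate, and per direction the 12 called genes with the largest smaller ratio of the 2 plates among those found in at least 25% of the higher class on each plate and not listed under a clone name. Single genes outside these sets, such as those named as absent, lower in the members or carried by single cells, were chosen after their values were seen. Some genes that the rule names are not reported here. The ratio calculation was tested on simulated data. Alternatives changed the gate, the scaling (TMM factors of edgeR, DESeq2 size factors), the added CPM, the filter, the fold, the way of pooling and the plates used. Python 3.11.15, numpy 2.4.6, pandas 2.3.3, scipy 1.17.1, matplotlib 3.10.9, R 4.3.3, edgeR 4.0.16 and DESeq2 1.42.0 were used. Sequences and coordinates were not used here, since no genome or sequence table was at hand.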

Additional observations from a re-analysis of the deposited data

Results flagged for a closer look

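On the *pdgfra* plate, which entered no comparison, 5 cells passed the same gate (1.37% of its cells, exact 95% interval 0.446 to 3.17%). Of these, 3 were gfap-only cells with 593, 312.4 and 321.5 CPM of *gfap*. They carried *col1a1a* with 18160, 8805 and 14331 CPM and *pdgfra* at 20 raw counts or more, and none reached 20 raw counts of *plp1a*, *sox3*, *pou3f1* or *her4.4*. The other 2 were elavl4-only cells. One had 3660 CPM of *elavl4* with 4676 CPM of *slc6a5*, 1509 CPM of *slc32a1*, 1962 CPM of *en1b*, 1892 CPM of *lhx1a* and 1932 CPM of *lhx5*. The second had 1331 CPM of *elavl4* with 514 CPM of *SLC17A6* and 2678 CPM of the transcription factor gene *tfap2a*.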

How the results depend on the processing

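With 5 CPM added in place of 1 CPM, 994 genes were higher in gfap-only cells, and 708 were higher and 503 lower in neural-gated cells against the other cells. At a 2-fold bound, 1962 genes were higher in elavl4-only cells, and 1983 were higher and 2496 lower in neural-gated cells. On a single plate, 3150 to 3982 genes were higher in gfap-only cells, 2521 to 2667 in elavl4-only cells, 1503 to 1748 were higher and 2022 to 2056 lower in neural-gated cells. With 1 plate fewer, a gene has to pass the bound only once. The share of members with *adamts3* was 13.3% at 50 raw counts, and 19.6 to 26.5% on a single plate. Under the other gates, scalings, filters and ways of pooling that were run, these counts stayed within 1.5 times the reported ones and the *adamts3* share within its interval. DESeq2 size factors moved the median log2 ratio of all genes from 0.32 to 0.018 inside the neural-gated cells and from −0.11 to 0.010 outside them, and the share of calls on the gfap-only side from 58.7% to 53.5%. Of 42 log2 ratios of named genes, 35 moved by more than the SD of the plates with 5 CPM added and 7 with a mean over cells in place of the sum, and none changed sign. The gates that were run took 67 to 99 cells in all, 30 to 52 gfap-only and 23 to 29 elavl4-only cells. The following were added after the data had been seen. With gfap-only cells that carried at least 1 of the 4 further markers, 1599 and 1293 genes were higher on the gfap-only and the elavl4-only side. With the elavl4-only cell that carried *sox3* left out, the numbers were 1827 and 1240. The *adamts3* share was 26.8% among the 71 members with at least 1 of the 4 further markers and 17.9% without the members that carried fibroblast genes. Every ratio was taken within a plate, so that the classes compared share their plate. A paired test over the plates was not made, because each plate was treated as 1 sample and the classes were chosen on these counts. With 7 elavl4-only cells on plate 1, a gene that is found in few neurons can be missed there.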
